A study of Rattus norvegicus with 4 samples.

Results

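Interleukin-6 (IL-6) family cytokines were followed in smooth muscle cells cultured from the aorta of Sprague-Dawley rats, through the probe sets of 9 genes: the ligands Il6, Lif and Il11, the receptor chains Il6st, Il6r, Osmr and Lifr, the feedback inhibitor Socs3 and the transcription factor Stat3. A probe set was taken where the platform annotation gave it exactly 1 of these symbols. This gave 13 probe sets for 8 genes, out of 31099 probe sets and 14218 genes with a symbol of their own; Osmr had none and is not analysed here. A total of 4 arrays were measured, 1 for each group. The IL-1b group received interleukin-1b, an inflammatory cytokine, at 2.5 ng/mL, and the IL-1b vehicle group received 0.1% bovine serum albumin (BSA) with 10 mM acetic acid. The PDGF-DD group received PDGF-DD, a platelet-derived growth factor, at 30 ng/mL, and the PDGF-DD vehicle group received 0.01% BSA. Exposure lasted 24 h in all groups and followed 3 days in serum and 3 days without it. The labels give a single culture per group, with no genetic change stated, so differences have no replicate check, no p-value is given, and precision is limited by having 1 array a group.

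IL-6 family cytokines bind a receptor chain of their own, such as the IL-6 receptor (Il6r), and share the signalling chain gp130, encoded by Il6st. Oncostatin M and LIF also engage Osmr and Lifr. Bound gp130 activates JAK kinases, which phosphorylate STAT3, and STAT3 in turn induces Socs3, whose protein binds gp130 and shuts the signal off. Smooth muscle cells of the vessel wall are known as a source of IL-6 in inflamed arteries.

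Values are linear intensities after each array was rescaled to the same trimmed mean. An intensity at or below 28.1, the 40th percentile over the pooled arrays, is called the floor and was not told apart from background. Against an array at the floor only a minimum fold can be given, worded as at least N-fold. A gene was called different at 2-fold, a rule of size and not a test. Where a gene had several probe sets, the one with the highest mean log2 intensity over the 4 arrays stood for it in counts.

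The regions before the Il6 and Il11 genes are shown because, among the member genes, only these had a window lying wholly before the annotated gene. Each sequence is the 250 bases before the annotated start, from RefSeq on GRCr8, read 5′ to 3′ on the gene's strand, with motif matches in capitals. Il6 lies at chr4:5894576-5894825 (minus strand) and Il11 at chr1:78098372-78098621 (plus strand).
Il6: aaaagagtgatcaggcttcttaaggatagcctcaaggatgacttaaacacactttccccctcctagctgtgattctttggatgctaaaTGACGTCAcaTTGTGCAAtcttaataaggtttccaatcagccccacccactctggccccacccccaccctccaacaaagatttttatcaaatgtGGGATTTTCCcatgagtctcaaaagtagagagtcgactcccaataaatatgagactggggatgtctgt
Il11: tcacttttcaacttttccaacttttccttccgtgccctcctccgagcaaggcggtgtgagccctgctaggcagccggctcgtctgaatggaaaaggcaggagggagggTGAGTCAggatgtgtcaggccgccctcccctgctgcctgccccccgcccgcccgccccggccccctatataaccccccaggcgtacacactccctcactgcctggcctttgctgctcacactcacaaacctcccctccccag
The capitals in Il6 mark, in order, a cyclic AMP response element (TGACGTCA, first base at -162 from the start), a C/EBP motif (searched as TTGCNNAA, at -152) and an NF-kappaB consensus match (at -68). The capitals in Il11 mark an AP-1 motif (searched as TGANTCA, at -142). Both strands were searched, the matches do not overlap, and a STAT motif (TTCNNNGAA) was not found in either window. Of all 33469 RefSeq windows of this length, 1.59% held the cyclic AMP element, 9.22% the C/EBP motif, 6.33% the NF-kappaB consensus, 6.34% the AP-1 motif and 7.67% the STAT motif. These matches describe the letters only; binding was not measured. For 6 other member genes the table's window reached into the annotated gene and was not searched, and Lif had no window.

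The arrays of the vehicle groups did not give the same starting point. Of 10389 genes above the floor on either vehicle array, 10.5% were at least 2-fold apart between them, close to the 11.6% called for IL-1b and the 8.91% for PDGF-DD against their own vehicles. Over 18 hybridisation control probe sets the log2 ratios between the vehicle arrays, PDGF-DD vehicle over IL-1b vehicle, ran between -1.64 and 0.32, against -0.36 to 0.26 within the IL-1b pair and -0.54 to -0.09 within the PDGF-DD pair. Between the vehicle arrays the probe sets of the control BioC gave -1.64 to -1.3, and the rest lay between -0.11 and 0.32. RNA quality, read from the signal of the 3' over the 5' probe set of beta-actin, gave 2.05 with IL-1b and 1.58 with its vehicle, and 1.37 with PDGF-DD and 1.26 with its vehicle. Vehicle composition, culture and array cannot be told apart here, so each member is given over either vehicle. All 6 smooth muscle markers (Acta2, Myh11, Tagln, Cnn1, Lmod1, Smtn) were above the floor on every array, with summed intensities of 8428 with IL-1b and 27068 with its vehicle, and of 4507 with PDGF-DD and 19871 with its vehicle. Of 8 leukocyte markers, 6 were at the floor on all arrays, Ptprc, Cd68 and Itgam among them, and of 4 endothelial markers with a probe set, 3 were (Pecam1, Vwf and Kdr). Cd14 was between 1117 and 1333 on the 4 arrays, while the lysozyme gene Lyz2 was 1305 with IL-1b and at the floor on the others. The leukocyte sum was 2674 with IL-1b, against 1189 with its vehicle, and 1161 with PDGF-DD, against 1269 with its vehicle. The part of these markers and of RNA quality in the results below was not tested. In these bulk samples a change in the share of cells of a type and a change in RNA per cell cannot be told apart.

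IL-1b was set against its vehicle to ask what the cytokine does to gene expression in smooth muscle cells. Among the members, a ligand pair, the shared receptor chain and the feedback inhibitor were higher with IL-1b: Il6, Il11, Il6st and Socs3. These are 4 of the 6 member genes above the floor on either array, with 0 lower, where 6.15% of all 10679 genes were higher and 5.42% lower by this rule. The median log2 ratio was 2.26 for the members above the floor and 0.02 over all genes. Of this pair of arrays, Il6, Il11 and Socs3 were above the floor with IL-1b only, so they could not come out lower. Their ratios in the member median are therefore lower bounds that depend on the floor. Against the PDGF-DD vehicle instead, 3 of 6 were higher (Il6, Il11 and Il6st), beside 5.44% of all genes. Il11 was at the floor on that vehicle array too and could not come out lower there either.

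Il6, the founding ligand of the family (probe set 1369191_at), had an intensity of 3645 with IL-1b and 16.1 with its vehicle, and 324 with PDGF-DD and 445 with its vehicle. The IL-1b array stood above the other 3, and only the IL-1b vehicle array was at the floor. The fold over the IL-1b vehicle was at least 130. Over the PDGF-DD vehicle it was 8.19-fold. The size of the Il6 difference thus moved by far more than 1.5 times with the vehicle used, while its direction was the same with either.

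Il11, a family member known for acting on stromal cells and in fibrosis (probe set 1369534_at), had an intensity of 127 with IL-1b and 3.93 with its vehicle, and 134 with PDGF-DD and 4.10 with its vehicle. Both factor arrays were above the floor and both vehicle arrays were at it, so the vehicle arrays cannot be compared for this gene. The folds were at least 4.54 with IL-1b and at least 4.77 with PDGF-DD, whichever vehicle array was used. Directly compared, the IL-1b and PDGF-DD arrays differed by a log2 ratio of -0.07. Lif, the leukemia inhibitory factor, had intensities of 15.4 with IL-1b, 8.71 with its vehicle, 12.2 with PDGF-DD and 9.20 with its vehicle, all at the floor, so no fold is given for it.

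**Figure D1:**
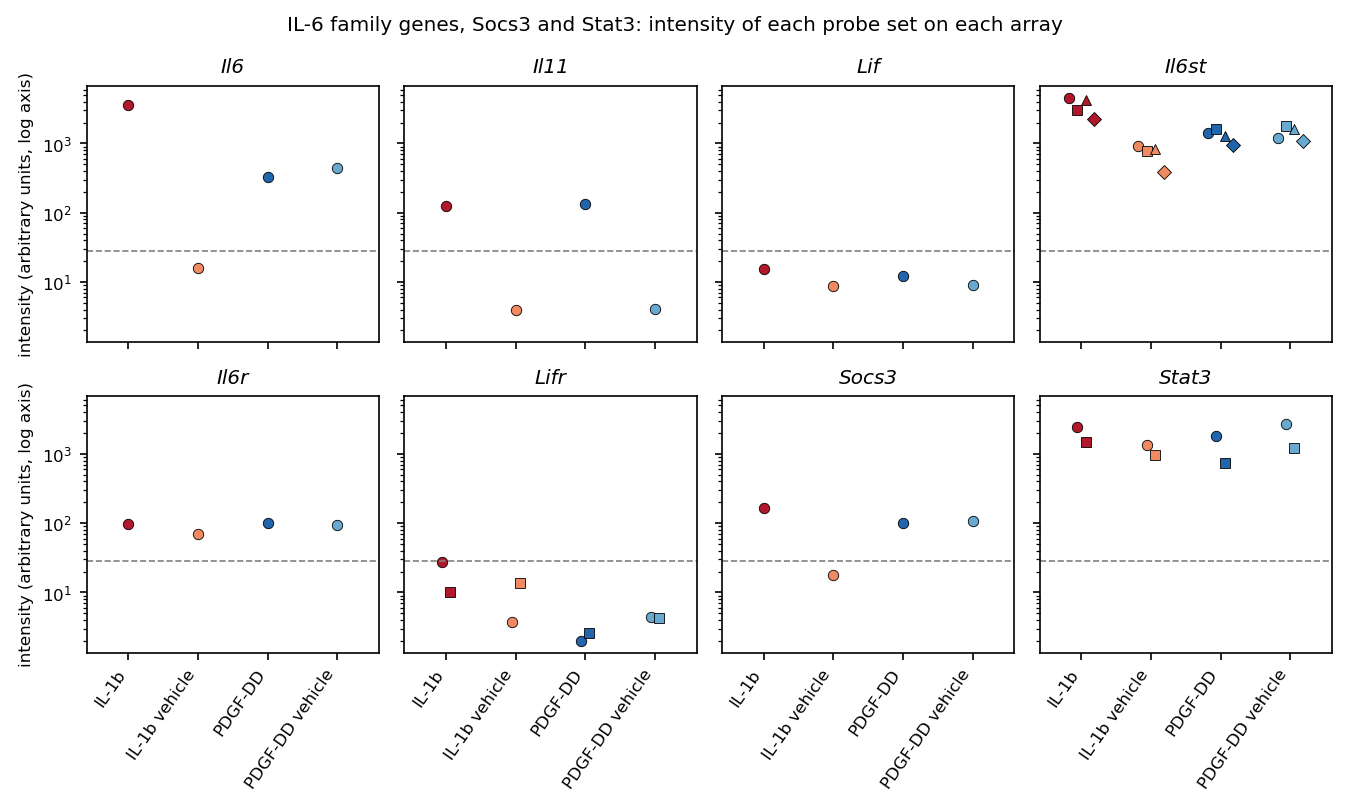
Intensity (log axis) of every probe set of the 8 member genes on the 4 arrays, 1 point for each probe set and array, with symbols for different probe sets of a gene and a dashed line at the floor of 28.1. Il6 and Socs3 were at the floor on the IL-1b vehicle array alone, Il11 was at the floor on both vehicle arrays, and Lif and Lifr were at the floor on all.

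Il6st encodes gp130, the chain through which all these cytokines signal, and had 4 probe sets. The one that stood for the gene in counts, 1373140_at, had an intensity of 4285 with IL-1b and 845 with its vehicle, and 1280 with PDGF-DD and 1643 with its vehicle. The other 3 ran from 2223 to 4583 with IL-1b and from 385 to 929 with its vehicle, and from 936 to 1633 with PDGF-DD and from 1079 to 1780 with its vehicle. On each of the 4 probe sets the IL-1b array was the highest and the IL-1b vehicle array the lowest. The log2 ratios over the IL-1b vehicle were 2.34 for 1373140_at and 2.30, 1.96 and 2.53 for the others, a narrow range. Over the PDGF-DD vehicle they were 1.38, 1.92, 0.76 and 1.04 in the same order, so that 1371926_at was less than 2-fold there. These probe sets read the same transcripts of 1 culture and are not replicates.

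Of the member chains that give ligand specificity, Il6r alone was above the floor. Il6r, the IL-6 binding chain, had an intensity of 98.1 with IL-1b and 69.4 with its vehicle, and 101 with PDGF-DD and 93.3 with its vehicle. None of these 4 values was 2-fold from another, and the log2 ratio was 0.50 for IL-1b and 0.11 for PDGF-DD over their own vehicles. Lifr, the LIF receptor, had 2 probe sets, and both were at the floor on all 4 arrays. The highest value, 27.3 with IL-1b on 1369228_at, lay just under the floor, against 3.74 with the IL-1b vehicle, and the other probe set was at 10.3 with IL-1b and 13.5 with its vehicle.

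Socs3, which blocks signalling at gp130 (probe set 1369584_at), had an intensity of 167 with IL-1b and 17.7 with its vehicle, and 100 with PDGF-DD and 106 with its vehicle. As with Il6, only the IL-1b vehicle array was at the floor. The fold of IL-1b was at least 5.94 over its own vehicle but 1.58 over the PDGF-DD vehicle, under the 2-fold rule. Stat3 encodes the factor that carries the signal to the nucleus. Its brighter probe set, 1370224_at, was 2479 with IL-1b and 1359 with its vehicle, and 1798 with PDGF-DD and 2727 with its vehicle. The second, 1371781_at, was 1467 with IL-1b and 970 with its vehicle, and 744 with PDGF-DD and 1224 with its vehicle. The log2 ratios of IL-1b over its vehicle were 0.87 and 0.60, and over the PDGF-DD vehicle they were -0.14 and 0.26, none reaching 2-fold.

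**Figure D2:**
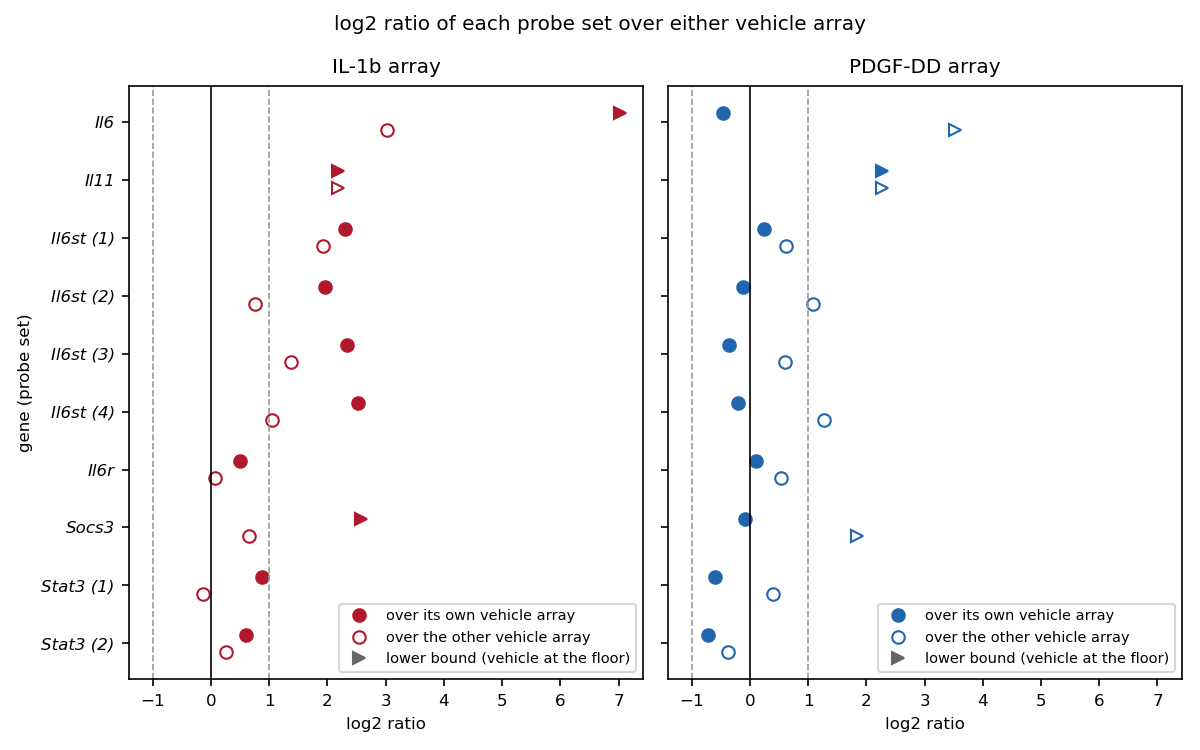
Log2 ratio of each probe set on the IL-1b array (left) and the PDGF-DD array (right) over its own vehicle array (filled) or the vehicle array of the other factor (open); triangles are lower bounds, dashed lines mark 2-fold, and numbers in brackets count a gene's probe sets in order of their identifiers. Il11 lies beyond 2-fold with either factor and either vehicle, while Socs3 passes 2-fold on the left with its own vehicle only and on the right with the other vehicle only.

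PDGF-DD was set against its vehicle with the same question for the growth factor. Il11 alone was higher, 1 of 6 members above the floor with 0 lower, where 4.24% of all 10142 genes were higher and 4.67% lower. The median log2 ratio was -0.22 for the members and 0.01 over all genes. The Il11 log2 ratio was at least 2.26, and with the PDGF-DD vehicle array at the floor Il11 could not come out lower. The others lay between -0.60 (Stat3) and 0.11 (Il6r), with Il6 at -0.46, Il6st at -0.36 and Socs3 at -0.08. Each of these was within 2-fold. The second Stat3 probe set gave -0.72, and the Il6st probe sets ran from -0.36 to 0.24. Against the IL-1b vehicle instead, 3 of 6 members were higher, at least 11.5-fold for Il6, at least 4.77-fold for Il11 and at least 3.57-fold for Socs3, beside 9.64% of all genes. Each of these 3 was at the floor on the IL-1b vehicle array and so could not come out lower. Il6st was 1.52-fold higher there by the probe set that stood for it, with 2.11-fold and 2.43-fold on 1371926_at and 1383489_at and 1.54-fold on 1370957_at. The call for Il6, Socs3 and those 2 Il6st probe sets with PDGF-DD therefore depended on the vehicle array.

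The vehicle arrays themselves, PDGF-DD vehicle over IL-1b vehicle, differed for 3 of 5 members above the floor, all higher, where 5.79% of 10389 genes were higher and 4.67% lower. The Il6 difference was at least 15.9-fold (445 with the PDGF-DD vehicle, 16.1 with the IL-1b vehicle). Socs3 was at least 3.77-fold higher and Stat3 2.01-fold, at the edge of the rule, with 1.26-fold by its second probe set. Il6 and Socs3 were at the floor with the IL-1b vehicle, so neither could come out lower. The Il6st probe sets ran from 1.31-fold to 2.80-fold higher, with 1.94-fold for the one that stood for the gene. Neither vehicle array received a factor.

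**Figure D3:**
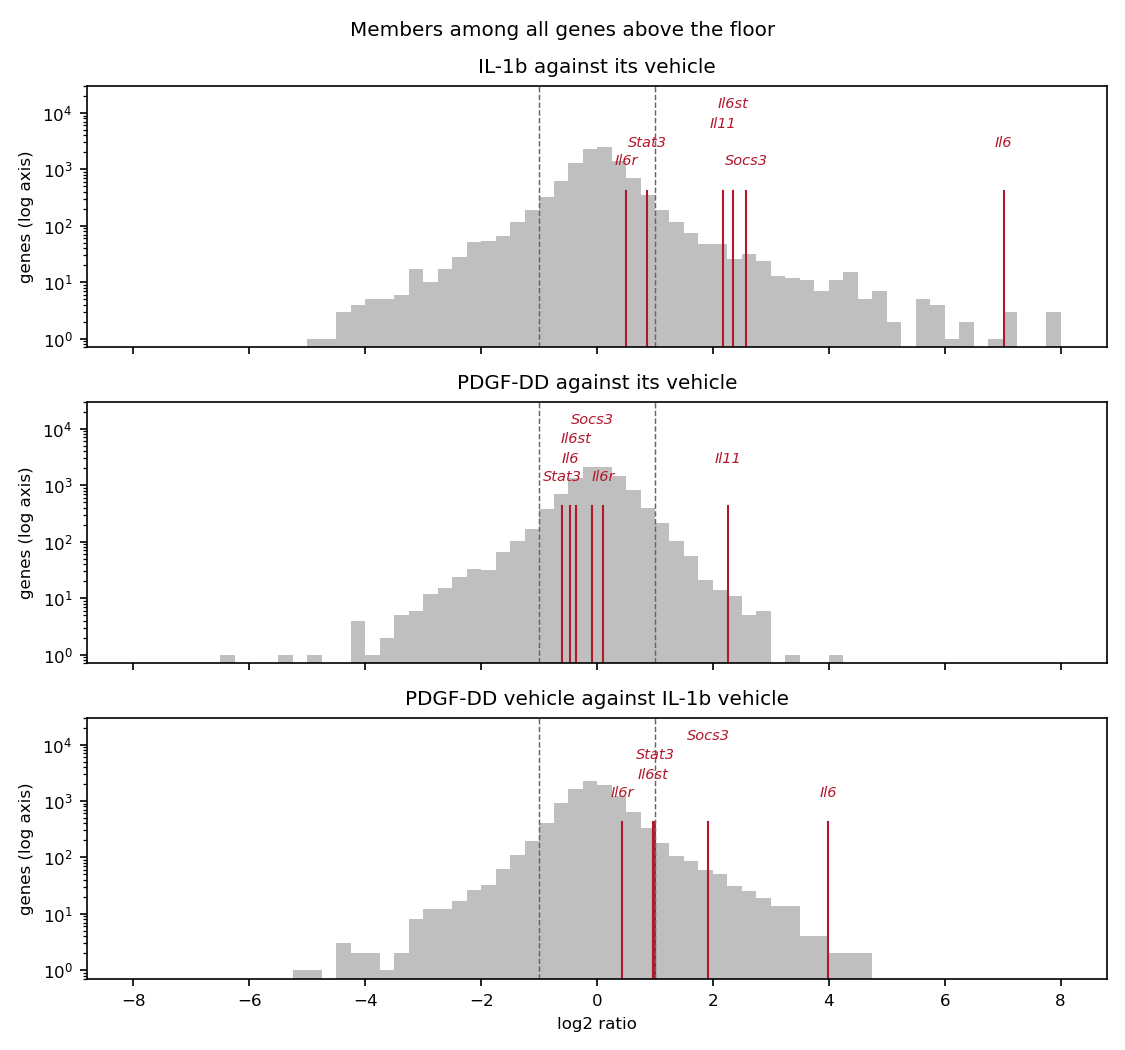
Histograms of the log2 ratio of all genes above the floor on either array (grey, log axis of gene counts) for IL-1b and PDGF-DD over their vehicles and for the PDGF-DD vehicle over the IL-1b vehicle, with the members as red lines and 2-fold as dashed lines. Il6 lies at 7.02, -0.46 and 3.99 from top to bottom, and Il11 at 2.18 and 2.26 in the upper panels. The values 7.02 and 3.99 for Il6, both values for Il11, and those of Socs3 in the top (2.57) and bottom (1.92) panels are lower bounds.

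The factors were also set side by side. Taken over its own vehicle, the IL-1b log2 ratio exceeded the PDGF-DD one by at least 7.48 for Il6, 2.70 for Il6st, at least 2.65 for Socs3, 1.47 for Stat3 and 0.39 for Il6r; for Il11 both ratios are bounds and no difference is given. None of these gaps was tested. With the vehicles exchanged they were at most -0.50 for Il6 and -1.18 for Socs3, since the PDGF-DD ratio is then the bound. They were 0.78 for Il6st, -0.54 for Stat3 and -0.46 for Il6r, so only Il6st kept its sign by the probe set used in counts. Further probe sets of Il6st were divided. With the vehicles exchanged, 1370957_at gave log2 ratios of 1.92 with IL-1b and 0.62 with PDGF-DD, which kept the sign. It turned on 1371926_at (0.76 and 1.08) and 1383489_at (1.04 and 1.28). The second Stat3 probe set, 1371781_at, kept its sign (0.26 and -0.38). A direct comparison of the IL-1b and PDGF-DD arrays needs no vehicle, but culture and array still cannot be told apart in it. Over the 18 hybridisation control probe sets its log2 ratios ran from 0.02 to 1.7, highest for those of the control BioC. There Il6 was 11.2-fold higher with IL-1b and Il6st 3.35-fold (1.84-fold on 1371926_at, under the rule), 2 of 6 members with 0 lower, beside 8.68% of 10508 genes higher and 7.09% lower. Socs3 was 1.67-fold, Stat3 1.38-fold (1.97-fold on 1371781_at, just short of 2-fold) and Il6r 1.03-fold apart, each under the rule.

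Genes whose log2 values over the 4 arrays, raised to the floor and centred on their mean, lay nearest to a member were sought among 10884 others. For Il6 they were Hsd11b1, a glucocorticoid-activating enzyme, at a root mean square difference of 0.75, the kinase Map3k8 at 0.78 and the chemokine Cxcl3 at 0.93. Map3k8, for example, was 1412 with IL-1b and 16.3 with its vehicle, and 72.5 with PDGF-DD and 231 with its vehicle. Unlike Il6, the other neighbours were higher with PDGF-DD than with its vehicle. Hsd11b1 was 1123 with PDGF-DD and 570 with its vehicle, and Cxcl3 was 90.8 and 76.1. For Il11 the nearest were the adaptor Shc4 (0.21), the ephrin receptor Epha2 (0.25) and C3h15orf48 (0.27). Epha2 was above the floor on all arrays, at 238 with IL-1b and 63.4 with its vehicle, and 298 with PDGF-DD and 84.9 with its vehicle. For Socs3 they were Ttc9 (0.09), Spring1 (0.11) and Sbno2 (0.14), the last at 898 with IL-1b and 149 with its vehicle, and 425 with PDGF-DD and 567 with its vehicle. Since Il11 was at the floor on 2 arrays and Il6 and Socs3 on 1, these distances depend on the floor and are not set against each other. Over 4 arrays such likeness is a description of these values only.

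Of 5 other ligands of the family above the floor, 2 were higher with IL-1b and 0 lower (median log2 ratio 0.30), and of 3 other receptor chains 0 differed, beside 6.15% of all genes higher and 5.42% lower. With PDGF-DD, 1 of 3 ligands was higher and 1 lower, and the single receptor chain above the floor was lower, beside 4.24% of all genes higher and 4.67% lower. Ebi3, a subunit of IL-27 and IL-35, was 162 with IL-1b and at the floor on the other arrays, at least 5.77-fold. Clcf1, a ligand of the CNTF receptor, was 205 with IL-1b and 80.3 with its vehicle, and 125 with PDGF-DD and 53.6 with its vehicle. Clcf1 was thus 2.56-fold and 2.32-fold higher with IL-1b and PDGF-DD, the same direction with both, as Il11 was; over the IL-1b vehicle the PDGF-DD value was 1.55-fold, under the rule. Cardiotrophin, Ctf1, and the IL-11 receptor chain Il11ra1 went the other way. Ctf1 was 402 with IL-1b and 745 with its vehicle, and 157 with PDGF-DD and 329 with its vehicle. Il11ra1 was 563 with IL-1b and 1026 with its vehicle, and 229 with PDGF-DD and 499 with its vehicle. By the rule both were lower with PDGF-DD, 2.10-fold and 2.18-fold, beside 4.67% of all genes, and with IL-1b they were 1.85-fold and 1.82-fold lower, under it. Ctf1 and Il11ra1 were also lower with the PDGF-DD vehicle than with the other vehicle, at log2 ratios of -1.18 and -1.04. Over the PDGF-DD vehicle the IL-1b log2 ratios turned positive, 0.29 for Ctf1 and 0.17 for Il11ra1, so only the PDGF-DD direction was the same with either vehicle.

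Of 9 JAK kinases and other STATs above the floor, 2 were higher with IL-1b and 0 lower, beside 6.15% and 5.42% of all genes, with a median log2 ratio of 0.01. Jak2, a kinase that works at gp130, was 258 with IL-1b and 66.2 with its vehicle, and 142 with PDGF-DD and 188 with its vehicle. Stat5a was 469 with IL-1b and 157 with its vehicle, and 221 with PDGF-DD and 209 with its vehicle. Over the PDGF-DD vehicle 2 of 8 in this list were higher with IL-1b, Stat5a (2.24-fold) and Stat6 (2.53-fold), beside 5.44% of all genes. Jak2 was not called there, at 1.37-fold, and Stat6 was 1.25-fold higher over the IL-1b vehicle, under the rule. Jak1, the main kinase of gp130, was at log2 ratios of 0.01 with IL-1b and -0.07 with PDGF-DD. With PDGF-DD 0 of 8 in this list were 2-fold apart from its own vehicle, but over the IL-1b vehicle Jak2 was 2.15-fold higher and Stat6 2.62-fold lower, beside 9.64% of all genes higher and 10.3% lower. Of 13 other SOCS proteins and inhibitors above the floor, Socs5 alone was higher with IL-1b and 0 were lower, beside the same shares of all genes as for the kinases, by 2.37-fold and, on its second probe set, 2.10-fold, but over the PDGF-DD vehicle the log2 ratios were 0.25 and -0.28. With PDGF-DD 0 of 11 differed from its own vehicle, beside 4.24% of all genes higher and 4.67% lower, while over the IL-1b vehicle Socs5 was 2.82-fold and 3.73-fold higher on its probe sets. Socs1, which like Socs3 inhibits JAK kinases directly, was at the floor on all arrays by both of its probe sets.

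Genes known as STAT3 targets, many of which other pathways such as NF-kappaB also induce, were higher with IL-1b in 11 of 18 members above the floor with 0 lower, beside 6.15% and 5.42% of all genes; their median log2 ratio was 1.57. Over the PDGF-DD vehicle 4 of 18 were higher (Bcl3, Bcl2l1, Lbp and Tnfaip3), beside 5.44% of all genes, with a median of 0.58. Cebpd, a transcription factor of the acute phase, was 3171 with IL-1b and 453 with its vehicle, and 1756 with PDGF-DD and 3117 with its vehicle. Its IL-1b and PDGF-DD vehicle arrays were nearly level. Bcl3, an IkB family coactivator, was 192 with IL-1b and at the floor with its vehicle, and 47.1 with PDGF-DD and 71.9 with its vehicle. The others called were Bcl6, Junb, Cebpb, Ccnd1, Hif1a, Timp1, Lbp, Hp and Icam1, from 2.06-fold (Hif1a) to 18.4-fold (Lbp). The fibrinogen genes Fga, Fgb and Fgg, and A2m, all typical of the liver response to IL-6, were at the floor on all arrays, as was Pim1.

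With PDGF-DD the same list had 3 of 17 higher and 3 lower, beside 4.24% and 4.67% of all genes, with a median of -0.24. Higher were Ccnd1 (cyclin D1, 3.50-fold), Bcl2l1 (2.08-fold) and Fos (2.04-fold). A second probe set of Bcl2l1, which encodes a survival protein, gave 1.29-fold. Lower were the acute phase genes Hp, at 51.4 with PDGF-DD and 403 with its vehicle, and Lbp, at 262 with PDGF-DD and 1055 with its vehicle, and the transcription factor Cebpb, at 1554 with PDGF-DD and 3113 with its vehicle. Of these 6 genes only Ccnd1 was called in the same direction over the IL-1b vehicle, where the log2 ratios were -0.42 for Hp, -0.37 for Lbp and 0.47 for Cebpb, the last with its sign turned. There 4 of 17 were higher (Junb, Cebpd, Ccnd1 and Timp1) and 1 lower (Tnfaip3), beside 9.64% and 10.3% of all genes. Between the vehicle arrays 9 of 17 were higher with the PDGF-DD vehicle and 1, Tnfaip3, was lower (median 1.18), beside 5.79% and 4.67% of all genes.

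**Figure D4:**
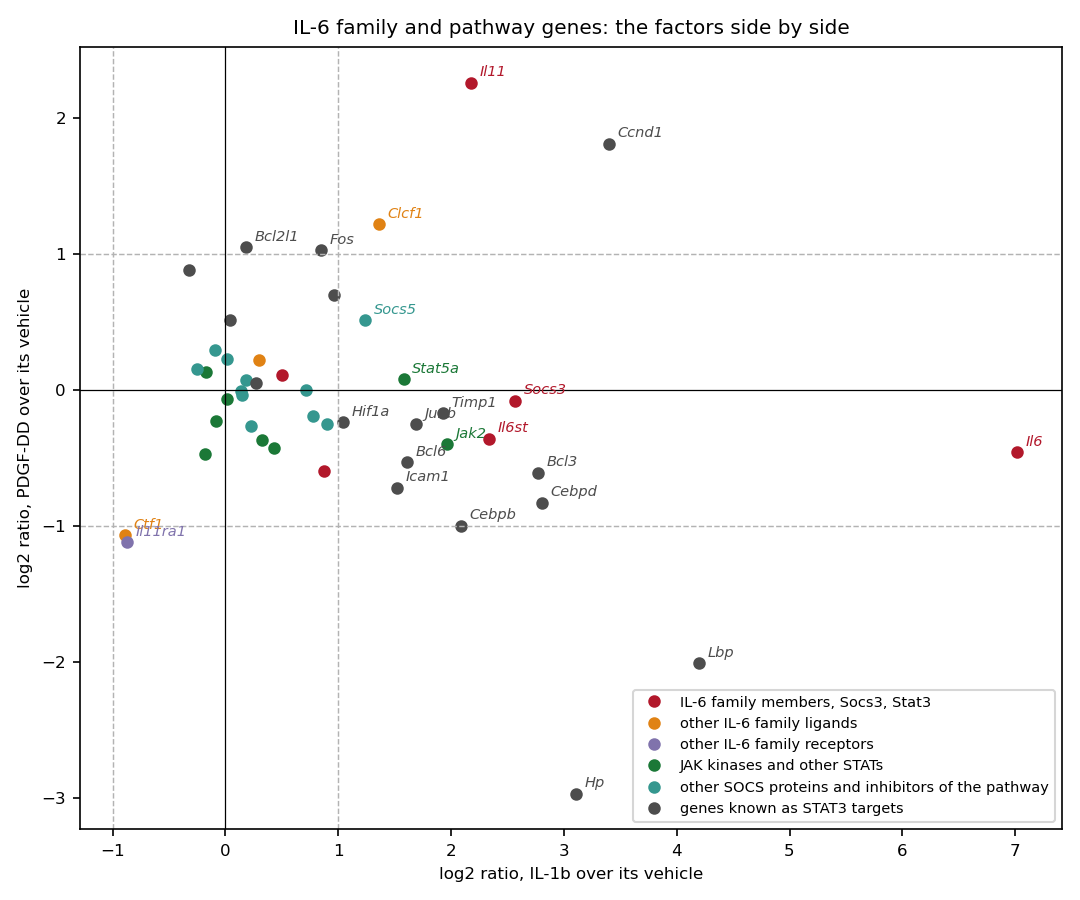
Log2 ratio over its own vehicle for IL-1b (horizontal) and PDGF-DD (vertical) of the members and pathway genes above the floor in both comparisons, coloured by list, with dashed lines at 2-fold and names for genes beyond it in either. Il11, Clcf1 and Ccnd1 lie beyond 2-fold to the upper right, and Lbp, Hp and Cebpb to the lower right; values for Il6, Il11, Socs3 and Bcl3 with IL-1b and for Il11 with PDGF-DD are lower bounds.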

How the data were processed

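RNA from 4 cultures of rat aortic smooth muscle cells was measured on 4 Affymetrix arrays, with groups taken from the array titles. Per the labels, biotin-labelled cRNA was made from Trizol-extracted RNA. The authors deposited linear intensities computed by MAS5 (per the submitters' processing notes), whose version is not given in the sources used here. The columns share a median of 53.3.

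Each array was rescaled to a common mean after trimming 2% at each end (factors 0.951 to 1.03), and values were raised to the 40th percentile (28.1) before log2. Between 58.3% and 61.5% of probe sets were above it. Symbols came from a 2016 platform annotation: 20832 probe sets had 1 symbol, 436 several and 9831 were not listed; all 13 member probe sets matched RefSeq by gene identifier. Named genes are all members, pathway genes at least 2-fold apart with a factor, and the 3 nearest patterns of Il6, Il11 and Socs3; Lif was at the floor. A few others (Jak1, Socs1, Stat6, Tnfaip3, A2m, Pim1 and the fibrinogen genes) were named after their values were seen. Members and lists were chosen with earlier results of these data known. Alternatives were other scalings, floors, folds, probe set rules and the other vehicle array. The steps were tested on simulated data. Python 3.11.15, numpy 2.4.6, pandas 2.3.3 and matplotlib 3.10.9 were used.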

Additional observations from a re-analysis of the deposited data

Results flagged for a closer look

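With IL-1b and PDGF-DD, 3 genes of the STAT3 target list were at least 2-fold apart from their vehicles in opposite directions, on 1 array each. The difference between the log2 ratios, IL-1b minus PDGF-DD, was 6.21 for Lbp, which encodes a protein that binds bacterial lipopolysaccharide, 6.08 for Hp, which encodes haptoglobin, and 3.09 for Cebpb. These differences were not tested. Cebpb was at the edge of the rule with PDGF-DD. Each was also higher with the PDGF-DD vehicle than with the other vehicle, at log2 ratios of 1.64 for Lbp, 2.56 for Hp and 1.48 for Cebpb. With the vehicles exchanged, the IL-1b log2 ratios were 2.56 for Lbp, 0.55 for Hp and 0.61 for Cebpb. Those of PDGF-DD were then -0.37, -0.42 and 0.47 in the same order, so none was 2-fold apart in opposite directions. In the direct comparison of the IL-1b and PDGF-DD arrays, which uses no vehicle, their log2 ratios were 4.57, 3.53 and 1.61 in the same order. The hybridisation controls ran from 0.02 to 1.7 in that comparison, and culture and array cannot be told apart.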

How the results depend on the processing

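No paired analysis was possible because each group held 1 array. Counts of members and of all genes stayed within 1.5 times under other scalings, floors and the median over probe sets. At 1.5-fold, 1411 genes were higher and 1262 lower with IL-1b, 1278 and 1259 with PDGF-DD, 1299 and 1430 for the PDGF-DD vehicle over the IL-1b vehicle, and 2155 and 1593 for IL-1b over PDGF-DD; 1 member, Stat3, was then lower with PDGF-DD. At 3-fold the higher and lower counts were 323 and 253, 88 and 171, 279 and 162, and 340 and 348. With the vehicle array of the other factor, PDGF-DD had 1002 genes higher and 1074 lower, and 3 members higher. Then 1 member (Socs3) differed between the factors by at least 2-fold, against 4 with their own vehicles, and its difference had turned to the opposite direction. Of 127 member log2 ratios recomputed, 121 kept their side of the 2-fold rule. Those of Il6 (3.53) and Socs3 (1.84) with PDGF-DD passed it over the other vehicle, and that of Socs3 with IL-1b (0.66) no longer did. Between the vehicle arrays, Stat3 fell short under quantile normalization (0.97) and the median over probe sets (0.67), as did Socs3 with a floor at the 50th percentile (0.99). Bounds move with the floor by construction: that of Il6 with IL-1b was up to 7.82. Pathway list counts, mostly small, moved by over 1.5 times in 50 of 300 recomputations. Signal near background limits Lif, Lifr and every bound, and no detection calls were used.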
